A study of Mus musculus with 8 samples.

Results

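The genes described here encode the interchangeable subunits of BAF, the mammalian SWI/SNF chromatin-remodelling complex, that are known to differ between neural progenitors and neurons. They are the 10 genes Smarca4, Smarca2, Actl6a, Actl6b, Ss18, Ss18l1, Phf10, Dpf2, Dpf1 and Dpf3, taken by symbol from a table of 23284 genes. All 10 were found and all 10 passed the filter on low counts. Transcripts were measured by RNA sequencing in wild-type C57BL/6J mouse brain cells, with 4 libraries from postnatal day 0 (P0) and 4 from postnatal day 8 (P8). A library goes by its age and its replicate number (P8 2), and values for an age are listed in the order of those numbers. Cells from dissociated whole brain were pulled out with magnetic beads against GLAST (the ASCA-1 antibody), a glutamate transporter found on radial glia and on astrocytes. The labels call the P0 cells radial glia and the P8 cells astrocyte precursors. They do not say whether replicates came from separate animals or pools, so p-values measure the spread between these libraries, which may be technical.

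BAF uses the energy of ATP to move or evict nucleosomes and so changes which DNA is open to transcription factors. Each complex carries 1 ATPase, BRG1 (Smarca4) or BRM (Smarca2), and a set of accessory subunits drawn from small paralog families. In the mouse, dividing neural progenitors build the complex with BAF53a (Actl6a), BAF45a (Phf10), BAF45d (Dpf2) and SS18. As neurons leave the cell cycle these give way to BAF53b (Actl6b), BAF45b (Dpf1), BAF45c (Dpf3) and CREST (Ss18l1). That exchange is a textbook feature of the neuronal lineage. The ratios below ask how the same paralogs stood in GLAST-sorted cells, a glial selection, at both ages.

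Totals per library ran from 30708719 to 94308235 counts, and 3 counts, taken as the limit that a count of 0 allows, correspond to 0.0318 to 0.0977 CPM (the count scaled to the library total). That limit covers counting error only. No unsorted library was analysed here, so the purity of the sort was not tested. Slc1a3, which encodes GLAST, averaged 295 CPM at P0 and 4133 CPM at P8, 14.9-fold higher at P8 (edgeR adjusted p = 2.21e-06). Of 8 radial glia markers 6 were higher and 2 lower at P8, with a median of 4.40-fold higher, although the labels give that cell type to P0. One of the 6, Pax6, is counted in the cerebellar granule lineage list as well. Ttr, a choroid plexus transcript, averaged 37740 CPM at P0 and 1242 CPM at P8. Of the astrocyte list of 10 markers, 8 were higher and 1 was lower at P8, and its summed level ran from 1310 to 2437 CPM at P0 and from 10164 to 11475 CPM at P8. Markers of other cells differed between the ages as well. Higher at P8 were 14 of 15 mature neuron, 6 of 10 neuroblast, 5 of 6 cerebellar granule lineage, 5 of 7 oligodendrocyte, 3 of 6 oligodendrocyte precursor and 6 of 7 microglia markers, with 1 lower in each oligodendrocyte list and 0 in the others. Lower at P8 were 6 of 6 choroid plexus, 5 of 6 endothelial, 6 of 7 pericyte and meningeal and 4 of 4 erythroid markers, with 0 higher. The ependymal and cilia list was mixed, with 2 of 5 higher and 3 lower. Among all genes tested, 24.5% were higher and 25% lower at P8. The part of this in the results below was not tested, except where values are given beside them. In sorted pools of this kind, more cells of a type and more transcript per cell cannot be told apart.

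The sequences just upstream of 4 members are shown because Actl6a and Actl6b are the progenitor and neuronal forms of 1 subunit, and because Actl6b, Dpf1 and Dpf3 had the largest rises among the members. They come from the RefSeq promoter table (built on GRCm38.p6), which held a window for 9 of the 10 members. Each is the part of the 250 bases before the RefSeq start that lies outside annotated exons, read 5′ to 3′ on the strand of the gene, with capitals marking CCAAT or its reverse complement ATTGG. Each matched 1 place on its chromosome in NCBIM37, the assembly that mm9 stands for: chr3:32607218-32607467 for Actl6a, chr5:137994524-137994744 for Actl6b, chr7:30088774-30088969 for Dpf1 (all on the plus strand) and chr12:84828687-84828936 on the minus strand for Dpf3. The Dpf3 window is that of the RefSeq start only: it lies far upstream of the GENCODE M1 model of Dpf3 (chr12:84314732-84451882) and does not adjoin an annotated start of that model.
Actl6a: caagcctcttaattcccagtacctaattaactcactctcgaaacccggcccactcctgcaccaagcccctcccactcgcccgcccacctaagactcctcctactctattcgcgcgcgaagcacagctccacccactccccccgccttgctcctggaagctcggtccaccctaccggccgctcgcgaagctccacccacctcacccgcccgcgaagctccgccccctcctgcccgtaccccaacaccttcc
Actl6b: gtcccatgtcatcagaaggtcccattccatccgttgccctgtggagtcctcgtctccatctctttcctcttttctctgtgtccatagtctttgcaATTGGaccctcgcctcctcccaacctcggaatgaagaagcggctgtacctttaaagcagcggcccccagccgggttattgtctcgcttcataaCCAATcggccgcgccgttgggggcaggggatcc
Dpf1: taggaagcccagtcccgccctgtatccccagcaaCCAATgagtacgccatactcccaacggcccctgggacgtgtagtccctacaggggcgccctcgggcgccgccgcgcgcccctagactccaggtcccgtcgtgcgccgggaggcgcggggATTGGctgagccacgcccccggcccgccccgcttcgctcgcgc
Dpf3: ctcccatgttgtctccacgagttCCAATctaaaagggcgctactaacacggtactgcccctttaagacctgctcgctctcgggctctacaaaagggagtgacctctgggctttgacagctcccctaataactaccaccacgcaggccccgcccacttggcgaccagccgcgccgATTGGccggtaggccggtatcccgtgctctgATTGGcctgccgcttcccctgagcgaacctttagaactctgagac

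Both strands of the 9 windows were searched for parts of the RE1 site bound by the repressor REST (TTCAGCACC and GGACAGCG), the CRE (TGACGTCA) and E2F sites (TTTCGCGC or TTTGGCGC). These letters occur in 0.301%, 0.992%, 1.55% and 0.654% of the 32851 windows in the table, and in 0 of the 9. The CCAAT box, a common promoter element, was looked for after the sequences had been read. It occurs in 33.8% of all windows, at least 2 times in 10.1% and at least 3 times in 2.79%. The full windows of Actl6b and Dpf3 hold 3 each, 1 of those of Actl6b lying past the printed part, that of Dpf1 holds 2 and that of Dpf2 holds 1. The windows of Smarca4, Smarca2, Actl6a, Phf10 and Ss18l1 hold 0. These are matches of letters and not evidence that a factor binds.

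Across the members, 6 genes rose from P0 to P8 (Actl6b, Dpf1, Dpf3, Ss18l1, Actl6a and Smarca4), 1 fell (Smarca2) and 3 did not pass the test (Ss18, Phf10 and Dpf2), by edgeR's quasi-likelihood test at a Benjamini-Hochberg adjusted p under 0.05 over 16808 genes. All 4 neuronal forms rose, and of the 4 progenitor forms that they replace in neurons 1 rose and 0 fell. Among all genes tested 49.5% passed, 24.5% higher and 25% lower at P8, so a call by itself is common in this comparison. The median log2 fold change was 0.48 over the members and 0.04 over all genes. In 6 of the 10 members the 4 values at P8 lay wholly outside the 4 values at P0, which was so for 47.2% of all genes tested.

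**Figure D1:**
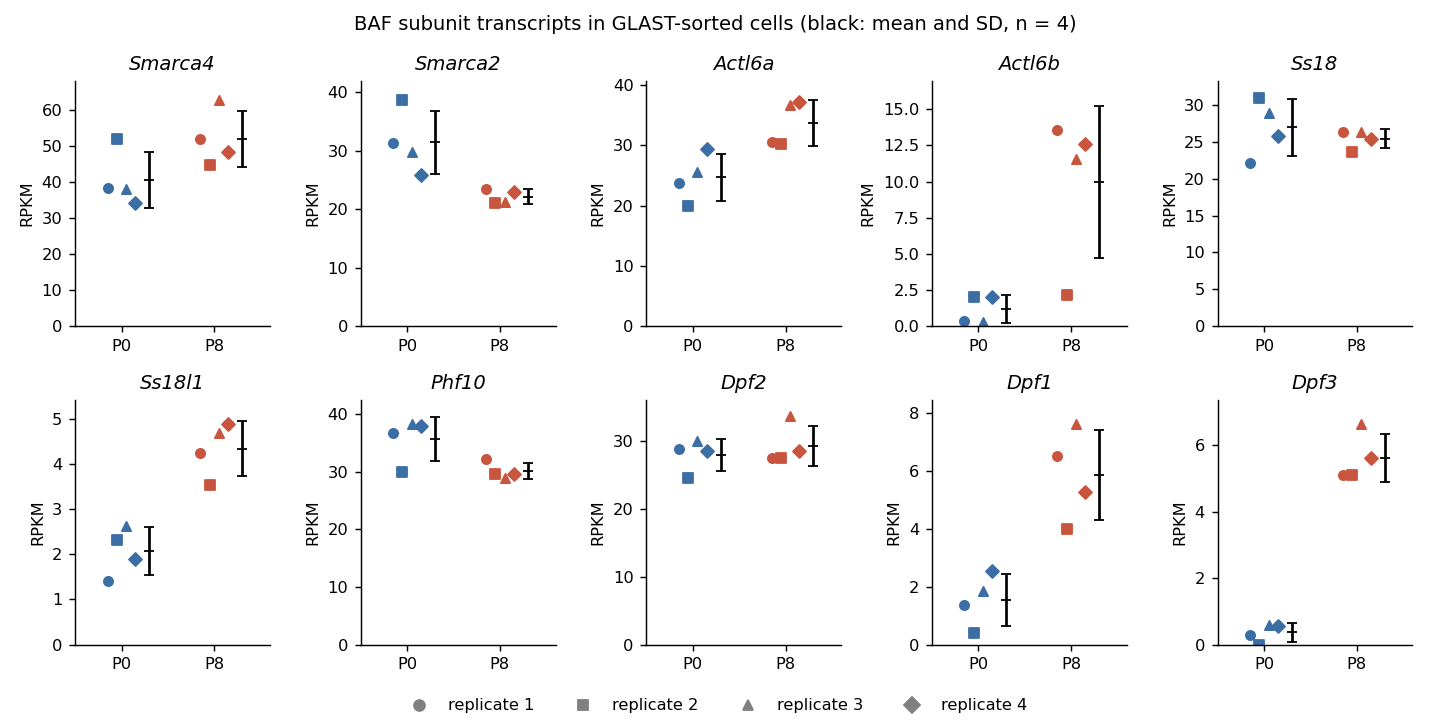
Level of each member in RPKM (linear axes from 0) in the P0 (blue) and P8 (red) libraries, with the marker shape giving the replicate number and black bars the mean and SD of 4 libraries. The neuronal forms Actl6b, Ss18l1, Dpf1 and Dpf3 were low at P0 and higher at P8, while Phf10, Dpf2 and Ss18 overlapped between the ages.

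RPKM is CPM divided by gene length in kilobases. Levels per length separated the members into 2 tiers at P0. The ATPases and the progenitor forms had mean levels of 24.7 to 40.5 RPKM and overlapped from each neighbour to the next in the order Smarca4, Phf10, Smarca2, Dpf2, Ss18 and Actl6a. The 4 neuronal forms had means of 0.362 to 2.07 RPKM, and the highest of their libraries, 2.63 RPKM for Ss18l1, was under the lowest of the upper tier, 19.99 RPKM for Actl6a. At P8 the neuronal forms had means of 4.33 to 9.98 RPKM, still under every other member, of which Smarca2 was the lowest at 22.1 ± 1.22 RPKM (SD, n = 4). The order within the lower tier at P8 was Actl6b, Dpf1, Dpf3 and Ss18l1, with overlap between the first 3 and no overlap between Dpf3 and Ss18l1. In the 3 families with a progenitor form, that form was the more abundant transcript in all 8 libraries by these values. The place of Dpf3 in these orders is uncertain. Of the 32-base words in its exons, 93.4% occur at more than 1 place in the genome, as described below.

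The ATPases moved in opposite directions. Smarca4 encodes BRG1, the ATPase that neural stem cells need to keep dividing, and spans chr9:21420613-21508674. Its levels were 245, 330, 242 and 217 CPM at P0 and 330, 284, 399 and 308 CPM at P8. The ages overlapped, because P0 2 was as high as the P8 libraries. Smarca4 was 1.35-fold higher at P8 (log2 fold change 0.43, SE 0.16, edgeR adjusted p = 0.0489). Smarca2 encodes BRM, the other ATPase, and spans chr19:26679650-26852811. It was at 190, 235, 182 and 158 CPM at P0 and at 143, 128, 129 and 139 CPM at P8. Each P8 library was under each P0 library, and the fitted change was 1.34-fold lower (log2 fold change -0.42, SE 0.14, edgeR adjusted p = 0.0311). Neither call was firm: that of Smarca4 was lost in 11 of 14 alternative fits (edgeR or DESeq2 adjusted p from 0.00921 to 0.127) and that of Smarca2 in 6 of 14 (0.0146 to 0.0876), with the same direction throughout. The Smarca4 call was lost without any 1 of P0 1, P0 3, P0 4, P8 1, P8 3 and P8 4 (log2 fold change 0.36 to 0.48), and the Smarca2 call without P0 2 or without any 1 P8 library (-0.46 to -0.31). In the authors' deposited table both had a false discovery rate above 0.05, 0.101 for Smarca4 and 0.0852 for Smarca2.

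A ratio of the ATPases within a library does not depend on library scaling. Smarca2 per length stood at 0.815, 0.748, 0.786 and 0.763 of Smarca4 at P0. At P8 it stood at 0.454, 0.472, 0.339 and 0.475. The P0 libraries kept within a narrow band and all P8 libraries lay under it, P8 3 lowest. The mean log2 ratio was -0.36 ± 0.05 at P0 and -1.22 ± 0.23 at P8 (SD, n = 4), a difference of -0.85, or a 1.80-fold lower ratio (exact permutation test, two-sided, p = 0.0286, Benjamini-Hochberg adjusted p = 0.0333 over 7 paralog ratios). With 4 libraries against 4 there are 70 relabelings and 0.0286 is the smallest p they can give. Smarca2 made up 43.7% ± 0.933 of the summed ATPase transcripts at P0 and 30.2% ± 3.29 at P8. The sum itself was 71.9 ± 13.03 RPKM at P0 and 73.9 ± 7.64 RPKM at P8, a difference smaller than the spread.

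**Figure D2:**
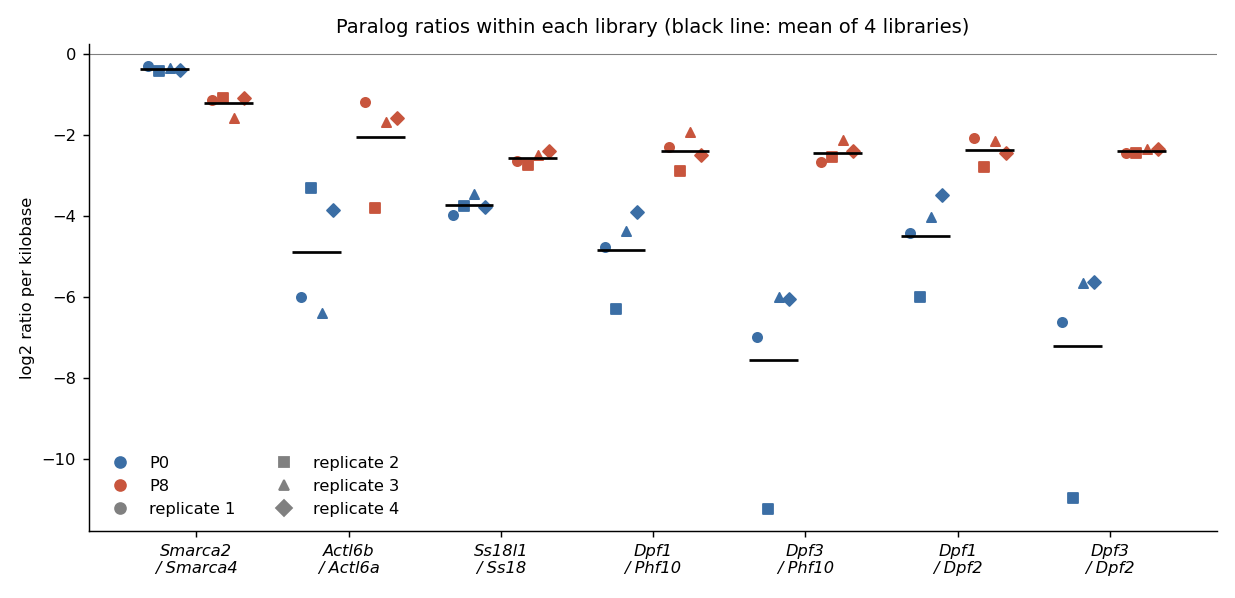
Log2 ratio of paralogs per kilobase within each library at P0 (blue) and P8 (red), with marker shapes for replicates and black lines for the mean of 4 libraries. The Smarca2 to Smarca4 ratio was lower at P8 and the other ratios higher, with Actl6b to Actl6a the pair whose ages overlap, and the lowest 2 points, near -11, come from 0 Dpf3 counts in P0 2.

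In the actin-like pair the neuronal form rose and the progenitor form did not fall. Actl6b encodes BAF53b, the actin-related subunit that neurons use and that is tied to dendrite growth and memory in mice, and spans chr5:137994745-138010810. It had 0.575, 3.16, 0.476 and 3.15 CPM at P0 and 21, 3.36, 17.9 and 19.5 CPM at P8. These values came from 26 to 170 counts at P0 and 236 to 1980 at P8. P0 2 and P0 4 stood above the other P0 libraries, and P8 2 sat just above them and far under the other P8 libraries. The fitted rise was 8.89-fold (log2 fold change 3.15, SE 0.75, edgeR adjusted p = 0.00662). Actl6a encodes BAF53a, a subunit of progenitor BAF that is also part of the INO80, SRCAP and TIP60 complexes, and spans chr3:32607468-32625890. Its levels were 46.7, 39.4, 50.4 and 57.9 CPM at P0 and 60.1, 59.6, 72.3 and 73.4 CPM at P8. All P8 libraries were above all P0 libraries, with a 1.44-fold rise (log2 fold change 0.53, SE 0.14, edgeR adjusted p = 0.0119).

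An exon of Actl6a overlaps Mrpl47 on the other strand, 19.6% of the 36-base words in Actl6a transcripts also occur in Mrpl47 transcripts, and the library kit does not mark strand, so reads there cannot be assigned. Mrpl47, a mitochondrial ribosomal protein gene, had 187 to 646 counts at P0 and 596 to 951 at P8, and its CPM values overlapped between the ages.

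Actl6b per length was 0.0157, 0.102, 0.0120 and 0.0692 of Actl6a at P0 and 0.444, 0.0716, 0.315 and 0.339 at P8. The ages overlapped, since P8 2 fell under P0 2. The mean log2 ratio was -4.88 ± 1.54 at P0 and -2.05 ± 1.19 at P8 (SD, n = 4), a difference of 2.83 that did not pass (exact permutation test, two-sided, p = 0.0571, adjusted p = 0.0571). Without P8 2 the ages did not overlap, at no more than 0.102 at P0 and at least 0.315 at P8. The difference was then 3.41 and the exact permutation p still 0.0571. With unequal groups, another relabeling gave a difference at least as large, so that p does not reflect overlap. As a share of the summed pair, Actl6b went from 1.19% to 9.26% at P0 to 23.9% to 30.8% in P8 1, P8 3 and P8 4, and 6.68% in P8 2. The summed level of the pair was 25.9 ± 4.04 RPKM at P0 and 43.7 ± 7.87 RPKM at P8 (SD, n = 4).

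The low level of Actl6b in P8 2 went with low levels of several marker lists there, of neurons and of other cells. The summed level of 15 mature neuron markers, among them Rbfox3, Snap25 and Syt1, was 35.6, 48.5, 47.1 and 102 CPM at P0 and 698, 128, 524 and 664 CPM at P8, with 0 of the 15 at a count of 0 in any of the 8 libraries. P8 2 was thus the lowest P8 library for neuron markers and for Actl6b alike. At P0 the match was looser. P0 1 was low and P0 4 high for both, but P0 2 and P0 3, with near-equal neuron sums, had 3.16 and 0.476 CPM of Actl6b. The neuroblast list of 10 genes, with Dcx, Eomes and Insm1, summed to 22.9 to 118 CPM at P0 and to 395, 123, 518 and 455 CPM at P8, again with P8 2 lowest. The gap in P8 2 was not particular to neuronal lists. Oligodendrocyte markers summed to 646 CPM there against 2204 to 2516 CPM in the other P8 libraries, oligodendrocyte precursor markers to 517 against 884 to 1588 CPM, and granule lineage markers to 165 against 335 to 426 CPM. Microglia markers were highest in P8 2, at 4395 against 1282 to 3206 CPM, and astrocyte markers lay within the others, at 11421 against 10164 to 11475 CPM. The part of any of these cell types in the rise of Actl6b was not tested.

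**Figure D3:**
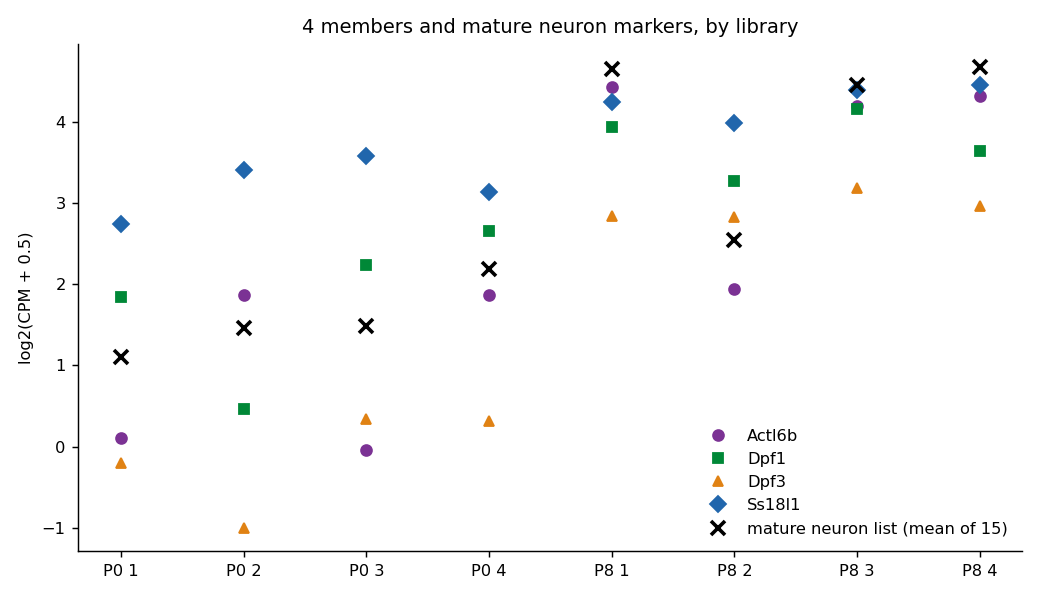
Level of Actl6b, Dpf1, Dpf3 and Ss18l1 in each library as log2(CPM + 0.5), beside the mean of the same quantity over 15 mature neuron markers (crosses). In P8 2 the crosses and Actl6b were well under the other P8 libraries, while Dpf3 at 6.62 CPM and Ss18l1 at 15.4 CPM stayed close to them. Dpf1 lay between, at 9.12 CPM against 12 to 17.4 CPM in the other P8 libraries.

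Ss18l1 rose against a steady partner. It encodes CREST, a calcium-responsive transactivator that replaces SS18 in neuronal BAF, and spans chr2:179777214-179804906. Its levels were 6.18, 10.1, 11.5 and 8.31 CPM at P0 and 18.5, 15.4, 20.5 and 21.4 CPM at P8. Every P8 library exceeded every P0 library, with a 2.22-fold rise (log2 fold change 1.15, SE 0.20, edgeR adjusted p = 0.00128). P8 2 was the lowest P8 library here as well, but at 15.4 CPM it stayed above the highest P0 library. Ss18, whose human homolog is the fusion partner in synovial sarcoma, spans chr18:14782707-14841423. It had 68.5, 95.6, 89.3 and 79.8 CPM at P0 and 81.4, 72.9, 81.6 and 78.7 CPM at P8. The ages overlapped throughout, with a log2 fold change of -0.00068 and an SE of 0.12 (edgeR adjusted p = 0.997). Of the 32-base words in its exons, 28.3% occur at more than 1 place in the genome, so its level is less certain than that of Ss18l1, at 0.950%.

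Ss18l1 per length was 0.0639, 0.0749, 0.0910 and 0.0737 of Ss18 at P0 and 0.161, 0.150, 0.178 and 0.192 at P8. The ages did not overlap and the mean log2 ratio went from -3.73 ± 0.21 to -2.56 ± 0.16 (SD, n = 4), a 2.25-fold higher ratio (exact permutation test, two-sided, p = 0.0286, adjusted p = 0.0333). Ss18l1 was 7.04% ± 0.966 of the summed pair at P0 and 14.5% ± 1.37 at P8. This pair and the ATPases had the smallest spread among replicates of the 7 ratios at P0.

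The BAF45 family supplies double PHD finger subunits that read histone tails, and here both neuronal forms rose while both progenitor forms did not pass the test. Dpf1 encodes BAF45b and spans chr7:30088970-30102607. It was at 3.08, 0.879, 4.21 and 5.82 CPM at P0 and at 14.8, 9.12, 17.4 and 12 CPM at P8. The ages did not overlap, with P0 2 the lowest P0 library and P8 2 the lowest P8 library, and the rise was 3.99-fold (log2 fold change 1.99, SE 0.47, edgeR adjusted p = 0.00607). Dpf3 encodes BAF45c, which is also known in heart and skeletal muscle development. It was at 0.370, 0, 0.769 and 0.742 CPM at P0, from 18, 0, 42 and 40 counts, and at 6.64, 6.62, 8.60 and 7.28 CPM at P8, from 464 to 626 counts. The 0 in P0 2 allows a level of up to 0.0977 CPM. Dpf3 had the largest fitted rise of the members, 15.7-fold (log2 fold change 3.97, SE 0.67, edgeR adjusted p = 0.000973), and the P8 libraries lay close together.

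Counts of Dpf3 carry a limit of their own. The GENCODE M1 model spans chr12:84314732-84451882, and 93.4% of the 32-base words in its exons occur at more than 1 place in NCBIM37. A second copy of them lies on the same chromosome at chr12:84583804-84685528. How reads with several matches were counted is not given in the sources used here, so the level of Dpf3 against other genes is uncertain, and both ages share this limit.

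Phf10 encodes BAF45a, a subunit of the PBAF form that keeps neural progenitors dividing, and spans chr17:15081999-15129820. Its levels were 60.1, 49.1, 62.5 and 62.0 CPM at P0 and 52.5, 48.5, 47.3 and 48.3 CPM at P8. P0 2 lay among the P8 libraries, and the fitted log2 fold change was -0.17 (SE 0.13, edgeR adjusted p = 0.295). Dpf2 encodes BAF45d, a broadly expressed form, and spans chr19:5896516-5913010. It was at 77.4, 66.1, 80.7 and 76.9 CPM at P0 and at 74.0, 73.9, 90.4 and 76.6 CPM at P8. The ages overlapped and the fitted log2 fold change was 0.14 (SE 0.12, edgeR adjusted p = 0.329). An exon of Phf10 overlaps 1600012H06Rik on the other strand, with 3.52% of 36-base words shared.

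Set against Phf10, Dpf1 per length was 0.0368, 0.0129, 0.0484 and 0.0675 at P0 and 0.203, 0.135, 0.264 and 0.179 at P8. The log2 ratio rose from -4.83 ± 1.03 to -2.40 ± 0.40 (SD, n = 4), a 5.38-fold higher ratio (exact permutation test, two-sided, p = 0.0286, adjusted p = 0.0333). Against Dpf2 the log2 ratio of Dpf1 rose by 2.12, or 4.35-fold, with the same p and adjusted p from the exact permutation test. Leaving out any 1 P8 library raised that p to 0.0571 at differences of 2.03 to 2.26, although the ages still did not overlap. With the unequal groups, another relabeling gave a difference at least as large. For Dpf3, 0.5 was added to each count before the ratio was taken because of the 0 in P0 2. Its log2 ratio to Phf10 rose from -7.56 ± 2.49 to -2.43 ± 0.23, or 35-fold, and that to Dpf2 from -7.21 ± 2.53 to -2.39 ± 0.05, or 28.3-fold (SD, n = 4, exact permutation test, two-sided, p = 0.0286 and adjusted p = 0.0333 for each). Both sizes rest on P0 2: without it they were 15-fold and 11.95-fold, and with a pseudocount of 0.1 RPKM 18.4-fold and 14.9-fold. In none of these settings did the ages overlap.

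Within the summed BAF45 family, Dpf1 and Dpf3 together went from 2.77% ± 1.62 at P0 to 16.1% ± 1.98 at P8 (SD, n = 4). Phf10 went from 54.5% ± 0.281 to 42.6% ± 3.42, and Dpf2 stood at 42.8% ± 1.49 and 41.3% ± 2.11. The sum of the 4 genes was 65.6 ± 7.24 RPKM at P0 and 70.8 ± 4.52 RPKM at P8. The neuronal forms thus gained a share of a family whose sum differed by less than its SD at P0. That difference was larger than the SD at P8. Dpf3 alone was 0.521% of the family at P0 and 7.91% at P8 (means, n = 4). The shares and sums of this family thus carry the limit on Dpf3 counts given above.

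Of the 21 other BAF subunits listed, 8 rose, 2 fell and 11 did not pass edgeR's test, with a median log2 fold change of 0.26. In 6 of the 21 the ages did not overlap. Over all genes tested, 49.5% passed (24.5% higher and 25% lower at P8) and in 47.2% the ages did not overlap. The count of 10 calls was 6 without P0 3 and 6 without P8 4. By the rule of a change of at least 2-fold, 2 are named. Bcl7a, a small subunit of unsettled function, rose 2.26-fold from a mean of 27.2 to 58.2 CPM (log2 fold change 1.17, SE 0.21, edgeR adjusted p = 0.00133). Bcl11a, a zinc-finger protein that neurons also express, rose 2.44-fold from 4.86 to 11.4 CPM (log2 fold change 1.29, SE 0.43, edgeR adjusted p = 0.0305). The smaller rises included Smarcb1, the core subunit lost in rhabdoid tumours, at 1.69-fold, and the falls were Smarcd2, at 1.45-fold, and Pbrm1, which marks PBAF, at 1.40-fold. The scaffold genes Smarcc1 and Smarcc2 did not pass, with log2 fold changes of 0.17 and 0.26.

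**Figure D4:**
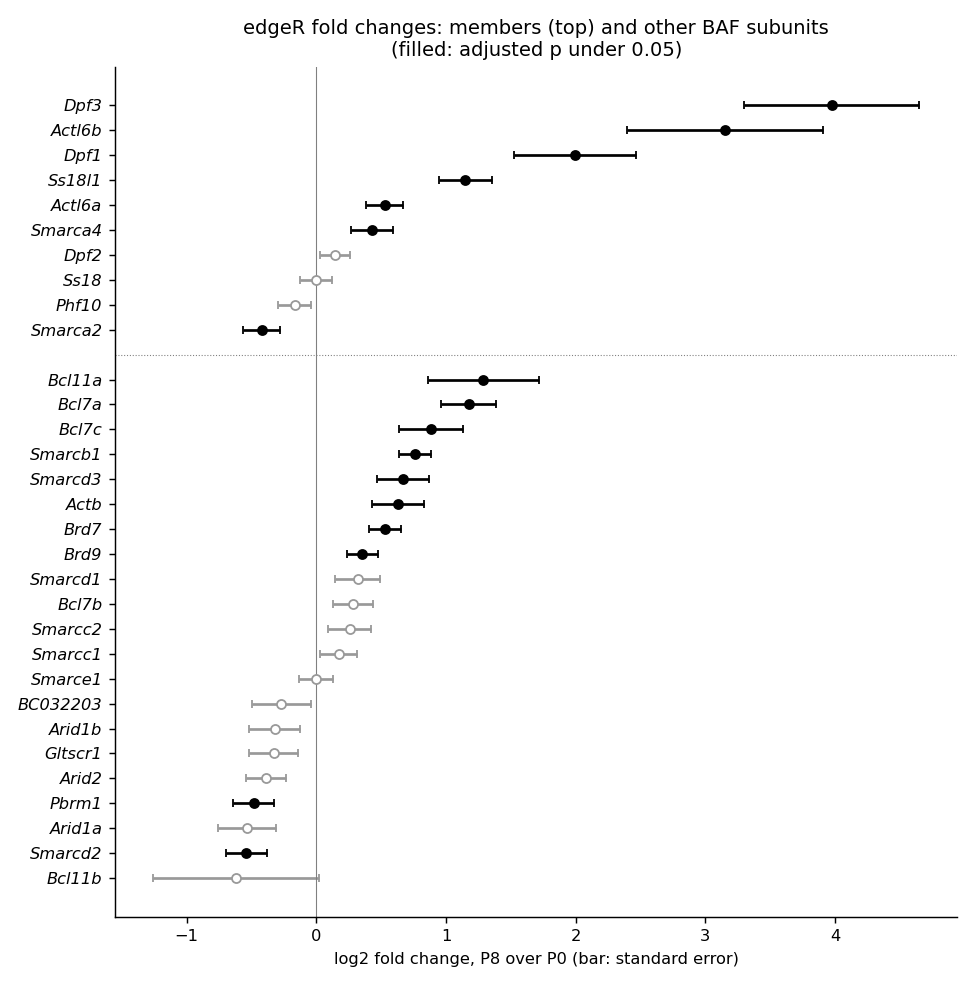
Log2 fold change from P0 to P8 in the edgeR fit for the 10 members (above the dotted line) and 21 other BAF subunits (below it), with bars for the standard error and filled points for an adjusted p under 0.05. Dpf3 and Actl6b lie farthest to the right at 3.97 and 3.15, and all 21 other subunits lie between -0.62 and 1.29.

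ATPases of other remodelling complexes gave 4 rises and 4 falls among 16 genes, with a median log2 fold change of -0.03. The shares over all genes tested, for this list and the next, were 24.5% higher and 25% lower at P8. Those that changed at least 2-fold were Chd5, a neuronal CHD remodeller (log2 fold change 1.56), Chd7, which is mutated in CHARGE syndrome (1.24), Smarca1, an ISWI ATPase (-1.76), and Chd3, a NuRD ATPase (-1.09). The list of 25 further genes from INO80, SRCAP and TIP60, the other complexes that contain Actl6a, held 4 rises and 2 falls at a median of -0.04, with 0 changes of 2-fold or more. Actl6a itself, at 0.53, lay above that median, and only Uchl5 (0.59) and Ino80e (0.56) of the 25 rose more.

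Genes that hold neuronal genes silent in other cells were listed because REST is known to silence the microRNAs that lower Actl6a in new mouse neurons. Of 11 listed, 6 fell, 2 rose and 3 did not pass, with a median log2 fold change of -0.42. Over all genes tested, 25% were lower and 24.5% higher at P8. Rest itself fell 2.34-fold, from a mean of 33.3 to 13.4 CPM (log2 fold change -1.23, SE 0.20, edgeR adjusted p = 0.000777). Ctdspl and Ctdsp2, small phosphatases recruited with REST, fell 3.13-fold and 2.12-fold. Rcor2, a corepressor that partners the demethylase LSD1, rose 6.20-fold, from 12.3 to 72.8 CPM (edgeR adjusted p = 0.000384). Markers of dividing cells, beside which the progenitor forms can be read, summed to 372 to 527 CPM at P0 and 675 to 885 CPM at P8, with 5 of 6 higher at P8 and 0 lower.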

How the data were processed

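RNA from GLAST-sorted cells was extracted with the PicoPure kit and made into TruSeq v2 libraries, per the labels' protocols. The submitters' processing notes list TopHat and the mm9 build. No counting tool, and no handling of multiply mapped reads, is stated in what was used here. The authors deposited whole-number counts per gene, CPM values that equal each count over its column total, and RPKM values that equal CPM per kilobase of the deposited gene length. Their deposited table also gives a log2 fold change and a false discovery rate, and 7738 genes have no value there.

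The test was that of edgeR 4.0.16 under R 4.3.3 (filterByExpr with a minimum count of 10 and a minimum total of 15, TMM, glmQLFit and glmQLFTest, 8 libraries, no covariate) with Benjamini-Hochberg adjustment over 16808 genes. Code was tested on simulated data. Paralog ratios are within-library log2 ratios of RPKM, tested by exact permutation of ages. The Dpf3 ratios were planned on RPKM, but use counts + 0.5 per kilobase because of a count of 0. Alternatives were other scalings (RLE, upper quartile, none), DESeq2 1.42.0, no filter, a replicate block, pseudocounts and leaving out each library.

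The members and lists were chosen with earlier results of these data known. Named genes are all members and, of each list, up to 4 per direction that were called with at least a 2-fold change and an age mean of 1 CPM or more. Further genes of those lists (Smarcb1, Smarcd2, Pbrm1, Smarcc1, Smarcc2, Uchl5 and Ino80e) were named after their values were seen. Srcap and Mrgbp were not matched by symbol. The CCAAT search and the checks of repeated 36-base and 32-base words were added after seeing the data. Positions are from GENCODE M1 on NCBIM37, matched by symbol. Proteins were not used here, and 1 gene that the likeness ranking gives is not reported here.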

Additional observations from a re-analysis of the deposited data

Results flagged for a closer look

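A check for a single library far from the other 3 of its age was run on 34 groups of 4 values, the members' levels and the paralog ratios at each age, and picked out 2. Chance picks out about 1 group in 20. Both lay in P8 3. The level of Dpf2 there was 90.4 CPM against 73.9 to 76.6 CPM in the other P8 libraries. The log2 ratio of Smarca2 to Smarca4 there was -1.56 against -1.14 to -1.07 in the other P8 libraries. Without P8 3 the difference of that ratio between the ages was -0.74, at an exact permutation p of 0.0286. Why these values stand apart in P8 3 was not tested.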

How the results depend on the processing

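The count of genes called ranged from 6979 to 9382 over 14 alternatives, against 8321, and that of members called from 5 to 7. Actl6a, Actl6b, Dpf1, Dpf3 and Ss18l1 were called in all 14, with adjusted p up to 0.0363, 0.0336, 0.0183, 0.00558 and 0.00684 (edgeR, or DESeq2 in 1 of them). Phf10, Dpf2 and Ss18 were called in 0 of the 14, and 0 of the 7 called fold changes turned direction. Other BAF subunits called, 10 in all, ranged from 6 (without P0 3 or P8 4) to 11 when 1 library was left out. Same-numbered libraries did not deviate together (r = -0.131, -0.0555, 0.0634 and 0.0456), and other pairs across the ages gave r from -0.127 to 0.229. With 4 libraries per age, this check is too small to show whether the replicate number stands for anything shared. With the replicate number as a block, edgeR called 7355 genes, 5 members and 7 other BAF subunits. Under the block the exact test has 16 relabelings and cannot give a p under 0.125, which the differences of -0.85 (Smarca2 to Smarca4), 1.17 (Ss18l1 to Ss18), 2.43 (Dpf1 to Phf10), 5.13 (Dpf3 to Phf10), 2.12 (Dpf1 to Dpf2) and 4.82 (Dpf3 to Dpf2) all reached. Without 1 library in turn, the Dpf1 to Dpf2 difference ranged from 1.62 to 2.45, and its exact p was 0.0571 without any 1 P8 library. The ages did not overlap in any of these settings. The median log2 fold change of all genes stayed between -0.04 and 0.07. Depth limits Dpf3 and Actl6b at P0, where a library held 0 to 170 counts.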

Other observations

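As a description with no test, genes were ranked by how closely their deviations from the age means followed those of a member over the 8 libraries (Pearson r on log2(RPKM + 0.05), 14135 genes with a mean of at least 1 RPKM). Libraries share depth and sorting, and with so many genes high values arise for any member. The closest were Psd3 for Smarca2 (0.987), Bcas3 for Smarca4 (0.985), Zfp772 for Actl6a (0.985), 6530402F18Rik for Actl6b (0.996), Wrap53 for Dpf1 (0.993), Nudt16 for Dpf3 (0.988) and D7Ertd715e for Ss18l1 (0.997). Next came Taf1 (0.971) and Gbas (0.970) for Smarca2, Ppp1r13l (0.985) for Smarca4, Mthfd2l (0.977) and Hyls1 (0.968) for Actl6a, and Meaf6 and Morn3 for Actl6b (0.981 each). Next for the rest came Lbx1 (0.988) and Rnf113a1 (0.987) for Dpf1, Mir761 (0.988) and 5530601H04Rik (0.986) for Dpf3, and Mir153 (0.992) and Dcaf11 (0.985) for Ss18l1.

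The 36-base words of Smarca4 and Smarca2 transcripts hold 4 in common, and those of the other 8 members hold 0 in common with another member. Counts of the paralogs are thus largely separable by sequence, other than the repeats of Dpf3 and Ss18 given above and 11.7% of the 32-base words of Dpf2.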
